A study of Bos grunniens with 12 samples.

Results

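The transforming growth factor beta (TGF-beta) superfamily of the yak testis was described from the deposited gene table: every gene whose symbol names a TGF-beta, a bone morphogenetic protein (BMP), a growth and differentiation factor (GDF), an inhibin or activin subunit, one of their receptors or a SMAD, together with the extracellular antagonists FST, FSTL1, FSTL3, NOG and CHRD. The rule selected 68 of the 20953 identifiers in the table, which carried 53 symbols. The testes came from 6 healthy domesticated yaks (Bos grunniens) kept at 1 location, 3 of them 1.5 years old (the libraries labelled 18M) and 3 of them 5 years old (the libraries labelled 5Y). Each testis gave an input library, made from poly(A) RNA, and a library of the fragments bound by an antibody against N6-methyladenosine (m6A), a methyl mark on adenosines of mRNA. The 18M testes were taken at castration and the 5Y testes from slaughtered animals, so age and the way of collection cannot be told apart. No treatment or genotype was given for either group, and the source tissue was whole testis, a mixture of germ cells and somatic cells. The question was how the family differed between the libraries labelled 18M and 5Y, described as before and after sexual maturity.

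Ligands of this family are secreted as dimers and signal through pairs of type I and type II serine/threonine kinase receptors on the cell surface. The activated type I receptor phosphorylates receptor-regulated SMADs, which enter the nucleus with SMAD4 and regulate transcription. SMAD6 and SMAD7 inhibit this signal, and secreted antagonists bind the ligands outside the cell. In the testis, Sertoli cells, the somatic cells that nurse the germ cells, make inhibin B, a dimer of the inhibin alpha and beta B subunits that lowers the release of follicle-stimulating hormone by the pituitary. The beta subunits also pair with each other to form activins.

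Cell type markers were used to check the labels, and the spermatid markers ran opposite to the stages that the growth protocol gives. Elongating spermatid markers, genes of germ cells that have finished meiosis, summed to between 1154 and 1195 FPKM (fragments per kilobase, corrected for library depth by the authors) in the 18M libraries and to between 263 and 849 FPKM in the 5Y libraries, over the 4 of 7 listed genes that the table holds. Round spermatid markers summed to between 166 and 234 FPKM in the 18M libraries and to between 46.9 and 174 FPKM in the 5Y libraries, over 6 of 7 genes. Spermatid RNA was thus abundant at both ages. The round spermatid sums overlapped, as 5Y replicate 2 (174 FPKM) lay above 18M replicate 2 (166 FPKM). The elongating spermatid sums were higher in every library labelled 18M, whose animals the growth protocol places before sexual maturity. In the deposited record, the stage written in each sample's developmental stage field is the reverse of this. Groups are therefore called by the age in their titles, and every direction given here is that of the libraries labelled 5Y against those labelled 18M. Sertoli cell markers (FSHR, DHH, WT1, GATA4 and SOX9, 5 of the 8 listed) summed to between 17.3 and 21.5 FPKM in the 18M libraries and to between 26.5 and 45.9 FPKM in the 5Y libraries. Peritubular and stromal markers (6 of 7 listed) summed to between 23.9 and 28.3 FPKM in the 18M libraries and to between 39.0 and 59.4 FPKM in the 5Y libraries. Leydig cell markers (2 of 6 listed) summed to between 10.1 and 19.1 FPKM in the 18M libraries and to between 7.40 and 8.40 FPKM in the 5Y libraries. The lower sum rested on STAR, at 8.60 to 15.4 FPKM in the 18M libraries and 4.83 to 6.30 FPKM in the 5Y libraries. The other marker, CYP11A1, overlapped, at 1.05 to 3.71 FPKM in the 18M libraries and 1.56 to 2.74 FPKM in the 5Y libraries. Spermatogonial markers (6 of 7 listed) summed to between 58.2 and 66.4 FPKM in the 18M libraries and to 139, 71.0 and 83.9 FPKM in 5Y replicates 1, 2 and 3. Single markers were less clear. GFRA1, ZBTB16, KIT and DMRT1 had overlapping values, and only ID4 and UCHL1 did not. DMRT1 made up the largest part of the sum (means of 34.5 and 47.0 FPKM). Sums of spermatocyte markers (98.9 to 108 against 82.4 to 105 FPKM, 8 of 9 listed) and of macrophage markers (22.6 to 25.8 against 13.4 to 27.9 FPKM, 5 of 5 listed) overlapped. No marker that the table holds was at 0 in all libraries. In whole tissue, fewer cells of a type and less RNA per cell cannot be told apart. FPKM is also relative to each library, so a rise in 1 cell type and a fall in another cannot be told apart either.

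The 5Y libraries also differed from each other. Over the tested genes, 5Y replicate 2 correlated with the 18M libraries at 0.942 to 0.947 (Pearson's r of the log2 values across genes, which are not independent replicates), and 5Y replicate 1 at 0.817 to 0.837. The FPKM values of a library summed to between 116187 and 139921. The number of fragments behind a value was not given, so no limit could be set for a value of 0. From the steps between low values, the value of 1 fragment was 0.912 to 1.005 times that in 18M replicate 1. The search was limited to ratios near 1, so it could not have found a library of very different depth.

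Of the 53 symbols, 10 stood on several identifiers, and many of the additional identifiers carried annotation terms of an unrelated function. For the description by gene, 1 identifier was therefore taken per symbol, by its own GO and KEGG terms, a choice made after the values had been seen. Of the 53 chosen identifiers, 42 carried terms of the family, 6 carried only terms of retroelement activity, 3 carried none, and those of TGFBR3 and BMP2K carried other terms. Of the 15 identifiers not chosen, 11 carried terms of other functions; the counts below are given with and without these 15.

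Among the chosen identifiers, 34 passed the filter of a mean of at least 0.5 FPKM over the 6 input libraries and were tested. The other 19 did not, and 5 of these, the identifiers of BMP10, BMP15, GDF3, INHBE and NOG, were listed at 0 in all 6 libraries. FPKM is a value per transcript length, so levels may be compared between genes. INHA, the inhibin alpha subunit, had the highest level of the family, with a mean of 96.4 FPKM over all libraries, and its lowest library (56.4 FPKM) lay above the highest value of any other gene among the chosen identifiers. BMP2K followed at 13.8 FPKM and TGFBR3 at 9.74 FPKM. Below these, FSTL1 (5.93 FPKM), INHBB (5.67 FPKM), SMAD4 (5.52 FPKM) and SMAD5 (5.48 FPKM) had overlapping values. The remaining tested genes had means between 0.523 FPKM (SMAD6) and 4.40 FPKM (SMAD3).

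**Figure D1:**
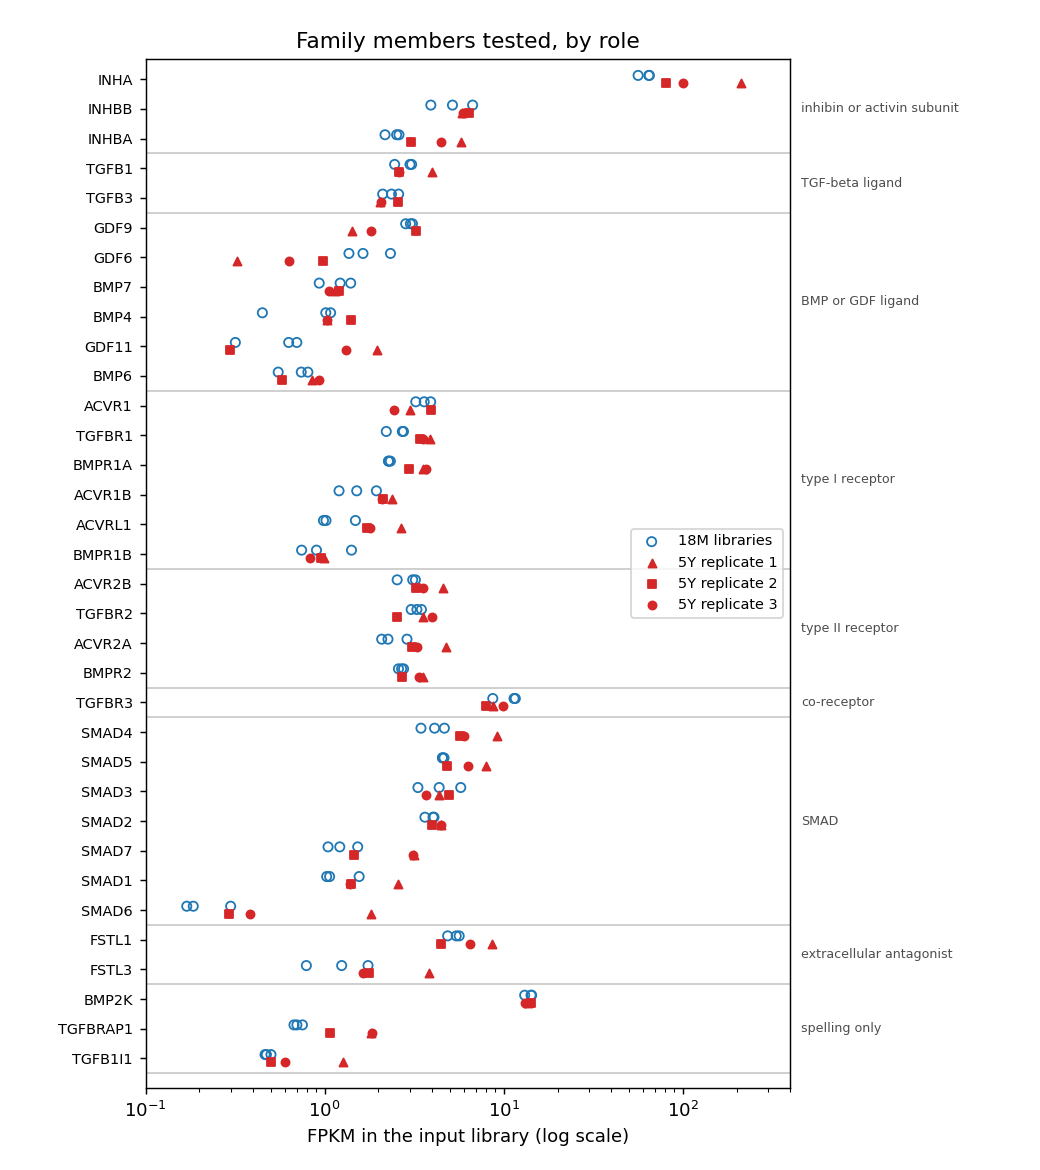
FPKM (log scale, x axis) of the 34 tested genes of the family, 1 identifier per symbol, in each of the 6 input libraries, grouped by role. Open circles are the 18M libraries and red symbols the 3 libraries labelled 5Y. INHA stands above all others in every library, and 5Y replicate 1 (triangles) is the highest 5Y library for many genes.

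No gene of the family had an adjusted p-value under 0.05 for the difference between the ages (limma, Benjamini-Hochberg over the 12437 genes tested). The same test called 4 genes of the whole table, or 0.0322%. At an unadjusted p-value under 0.05, 9 of the 34 genes were higher in the 5Y libraries (26.5%) and 1 was lower (2.94%), where the shares over all genes tested were 14.2% and 10.9%. The groups did not overlap for 12 genes that were higher (35.3%) and for 1 that was lower (2.94%) in the 5Y libraries, against 19.8% and 13.9% of all genes tested. With every identifier under the rule kept, 42 were tested: 13 were higher and 1 was lower at an unadjusted p-value under 0.05, and the groups did not overlap for 17 that were higher and 1 that was lower. The median log2 fold change of FPKM + 0.1 (5Y over 18M) was 0.39 over the 34 genes, where that of all genes tested was 0.04. It was 0.20 without 5Y replicate 1 (all genes 0.05) and 0.47 without 5Y replicate 2 (all genes 0.06). Scaling each library to the same FPKM sum moved the median of all genes by 0.12, and its calls at an unadjusted p-value under 0.05 from 1767 higher and 1356 lower (56.6% higher) to 2419 and 1055 (69.6% higher). Under that scaling the 42 identifiers gave 16 higher and 1 lower.

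These counts depended on which 5Y library was in the fit. Without 5Y replicate 2, the library most like the 18M libraries, 10 of the 34 genes had an adjusted p-value under 0.05, 8 higher and 2 lower in the 5Y libraries. All genes tested then had 20.3% of such calls (10.9% higher and 9.41% lower). The 8 higher genes were INHA, INHBA, SMAD4, SMAD5, SMAD7, BMPR1A, GDF11 and TGFBRAP1, and the 2 lower genes were GDF6 and GDF9. Without 5Y replicate 1, no gene of the family had an adjusted p-value under 0.05 (0.0563% of all genes tested), and 6 were higher and 1 was lower at an unadjusted p-value under 0.05 (9.97% and 8.56% of all genes tested). Relative to the mean of the 18M libraries, the median log2 difference of the 34 genes was 0.59 in 5Y replicate 1, 0.13 in 5Y replicate 2 and 0.30 in 5Y replicate 3. Of the 12 higher genes whose groups did not overlap, 10 were highest in 5Y replicate 1 and 11 were lowest in 5Y replicate 2. Among all tested genes of that kind, 75.3% were highest in 5Y replicate 1 and 75.9% lowest in 5Y replicate 2, so the family shared this order of the animals with the rest of the table. The sums of the Sertoli cell markers and of the peritubular and stromal markers had the same order of the 5Y libraries.

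INHA and INHBA, the alpha and beta A subunits of inhibin, were higher in the 5Y libraries, while INHBB, the beta B subunit, had overlapping values. INHA (ENSBGRG00000018527) was at 65.2, 64.7 and 56.4 FPKM in 18M replicates 1, 2 and 3 and at 211, 81.2 and 100.1 FPKM in 5Y replicates 1, 2 and 3. Every 5Y library lay above every 18M library, and 5Y replicate 1 lay far above the other two. The means were 62.1 ± 4.94 FPKM and 130.7 ± 70.0 FPKM (SD, n = 3 each), with a log2 fold change of 0.95 (standard error 0.34, unadjusted p = 0.0279 and adjusted p = 0.168 by limma). Without 5Y replicate 1 the log2 fold change was 0.54 (adjusted p = 0.147), and without 5Y replicate 2 it was 1.23 (adjusted p = 0.0424).

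INHBA (ENSBGRG00000009678) was at 2.60, 2.53 and 2.17 FPKM in the 18M libraries and at 5.75, 3.03 and 4.46 FPKM in the 5Y libraries. The groups did not overlap, with 5Y replicate 2 closest to the 18M libraries (log2 fold change 0.79, standard error 0.24, adjusted p = 0.154). INHBB (ENSBGRG00000002649) was at 6.71, 3.92 and 5.18 FPKM in the 18M libraries and at 5.88, 6.44 and 5.90 FPKM in the 5Y libraries. Its 18M libraries spread more widely than its 5Y libraries and enclosed all of them (adjusted p = 0.484). In each library INHA exceeded INHBB by between 9.72 and 35.9 times. INHBB exceeded INHBA by between 1.55 and 2.58 times in the 18M libraries and by between 1.02 and 2.13 times in the 5Y libraries. INHBC and INHBE, the beta C and beta E subunits, were below the filter. AMH, the anti-Müllerian hormone of Sertoli cells, and its receptor AMHR2 have no row under their symbols in the table used here and were not analysed.

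The Sertoli cell markers had the direction of INHA and INHBA, while INHBB overlapped. All 5 of these markers were higher in the 5Y libraries at an unadjusted p-value under 0.05, as were 14.2% of all genes tested. The median log2 fold change of the list was 0.88, and 0.66 without 5Y replicate 1. Their part in the differences of INHA and INHBA was not tested. As a description chosen after the values had been seen, INHBA divided by the sum of the Sertoli cell markers of the same library was 0.118 to 0.126 in the 18M libraries and 0.114 to 0.127 in the 5Y libraries. The same ratio for INHA was 3.01 to 3.26 in the 18M libraries and 4.60, 3.06 and 2.86 in 5Y replicates 1, 2 and 3. Relative to these markers, then, INHBA covered nearly the same range at both ages, and INHA was set apart in 5Y replicate 1 alone. Divided by the sum of the peritubular and stromal markers, INHBA was 0.0768 to 0.109 in the 18M libraries and 0.0777 to 0.0968 in the 5Y libraries. Divided by the sum of the round spermatid markers, it was 0.0093 to 0.0152 and 0.0174 to 0.123, with no overlap. The overlap of INHBA was thus shared by the peritubular and stromal list but not by the round spermatid list. For INHBB the ratio to the Sertoli cell markers was 0.183 to 0.314 in the 18M libraries and 0.128 to 0.243 in the 5Y libraries.

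**Figure D2:**
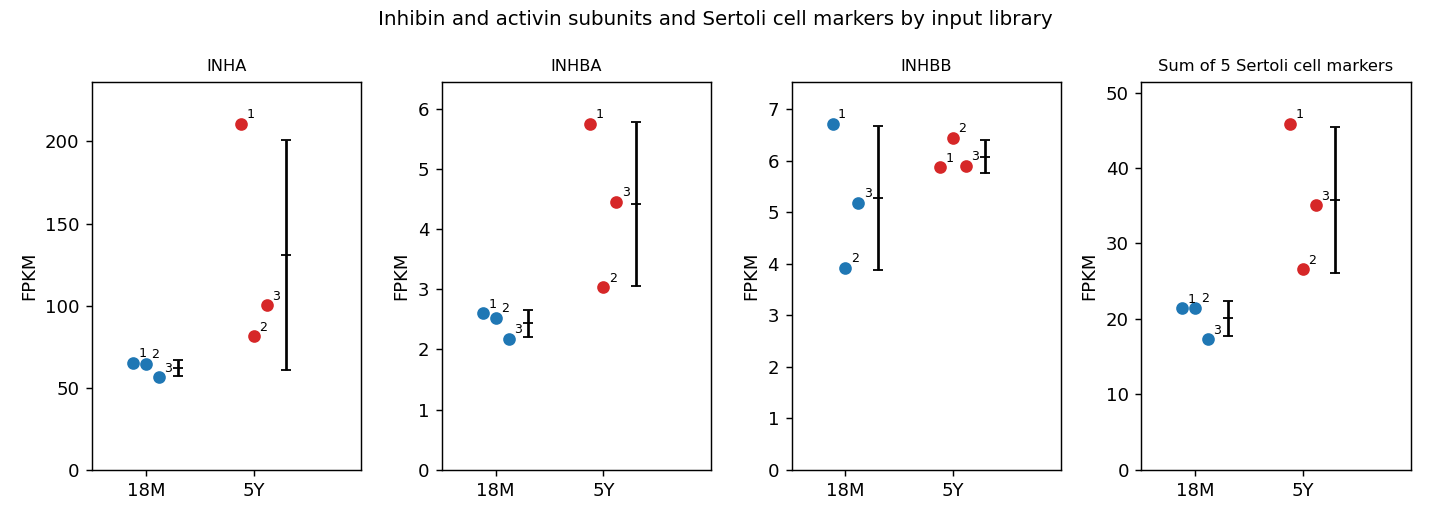
FPKM (y axis, from 0) of INHA, INHBA and INHBB and the sum of the 5 Sertoli cell markers in each input library, with replicate numbers beside the points. The bars show the mean ± SD of 3 libraries. INHA, INHBA and the marker sum are higher in every 5Y library than in any 18M library and are highest in 5Y replicate 1, while INHBB overlaps.

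Among the TGF-beta and BMP ligands, which were low in whole testis, GDF6 was the only tested gene whose groups did not overlap. GDF6 (ENSBGRG00000005947), a BMP-type ligand known for its role in the skeleton, was at 2.33, 1.37 and 1.64 FPKM in the 18M libraries. In the 5Y libraries it was at 0.324, 0.983 and 0.632 FPKM, each below every 18M library. The log2 fold change was -1.40 (standard error 0.39, unadjusted p = 0.00834 and adjusted p = 0.154), and it lay between -1.72 and -1.05 when 1 library at a time was left out. Divided by the sum of the round spermatid markers of the same library, GDF6 was 0.0070 to 0.0118 in the 18M libraries. It was 0.0056 to 0.0077 in the 5Y libraries, which overlaps. Divided by the Sertoli cell marker sum, GDF6 was 0.0637 to 0.109 in the 18M libraries and 0.0071 to 0.0370 in the 5Y libraries. Divided by the peritubular and stromal marker sum, it was 0.0486 to 0.0975 and 0.0055 to 0.0252, and neither of these ratios overlapped. These ratios were also chosen after the values had been seen. Of the round spermatid markers, 5 of 6 were lower in the 5Y libraries at an unadjusted p-value under 0.05 (10.9% of all genes tested). Their part in the difference of GDF6 was not tested.

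GDF9 (ENSBGRG00000000431), known as a factor of the oocyte, was at 2.84, 3.01 and 3.10 FPKM in the 18M libraries and at 1.43, 3.22 and 1.81 FPKM in the 5Y libraries. Replicate 2 of 5Y exceeded all 18M libraries and the other two lay below them (log2 fold change -0.53, adjusted p = 0.277). Without it the log2 fold change was -0.85 (adjusted p = 0.0288), and without 5Y replicate 1 it was -0.29 (adjusted p = 0.568). GDF11, which acts in patterning of the embryo, was at 0.630, 0.317 and 0.699 FPKM in the 18M libraries and at 1.95, 0.294 and 1.32 FPKM in the 5Y libraries, so that 5Y replicate 2 was the lowest of the 6 libraries and the other two were the highest. BMP4, BMP6 and BMP7 had overlapping values between 0.449 and 1.41 FPKM. The other 11 BMP and GDF ligands (BMP2, BMP3, BMP5, BMP10, BMP15, GDF2, GDF3, GDF5, GDF7, GDF10 and GDF15) were below the filter. TGFB1, the ligand that gave the family its name, was at 2.46, 3.00 and 3.06 FPKM in the 18M libraries and at 3.96, 2.61 and 2.61 FPKM in the 5Y libraries, and its sign depended on the libraries and scaling used. TGFB3 lay between 2.04 and 2.59 FPKM in all libraries. The TGFB2 identifier with family terms was below the filter, at a mean of 0.261 FPKM in the 18M libraries and 0.537 FPKM in the 5Y libraries.

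Of the 10 tested type I and type II receptors, 6 had groups that did not overlap, each with the 5Y libraries higher, as had 19.8% of all genes tested. BMPR1A (ENSBGRG00000026562), a type I receptor for BMPs, was at 2.28, 2.28 and 2.33 FPKM in the 18M libraries and at 3.52, 2.97 and 3.71 FPKM in the 5Y libraries. The 18M libraries were nearly equal and all 5Y libraries lay above them (log2 fold change 0.54, standard error 0.16, unadjusted p = 0.00972 and adjusted p = 0.154). TGFBR1 (ENSBGRG00000020338), the type I receptor for TGF-beta, was at 2.72, 2.76 and 2.21 FPKM in the 18M libraries and at 3.88, 3.40 and 3.53 FPKM in the 5Y libraries (log2 fold change 0.48, standard error 0.16, adjusted p = 0.160). Its 5Y libraries spread over less than 0.5 FPKM. ACVRL1 (ENSBGRG00000000336), a type I receptor known from endothelial cells, was at 1.02, 0.985 and 1.49 FPKM in the 18M libraries and at 2.68, 1.72 and 1.78 FPKM in the 5Y libraries (log2 fold change 0.77, standard error 0.26, adjusted p = 0.161). Endothelial cell markers (5 of 5 listed) summed to between 7.09 and 9.39 FPKM in the 18M libraries and to between 8.12 and 11.6 FPKM in the 5Y libraries, which overlap.

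ACVR2A (ENSBGRG00000004989), a type II receptor for activins and some BMPs, was at 2.89, 2.26 and 2.08 FPKM in the 18M libraries and at 4.77, 3.08 and 3.26 FPKM in the 5Y libraries (log2 fold change 0.59, standard error 0.22, adjusted p = 0.174). Its relative ACVR2B (ENSBGRG00000011212) was at 2.54, 3.21 and 3.10 FPKM in the 18M libraries and at 4.56, 3.23 and 3.54 FPKM in the 5Y libraries, so that 5Y replicate 2 was barely above the highest 18M library (adjusted p = 0.286). ACVR1B, the type I receptor for activin, did not overlap either, with 1.20 to 1.95 FPKM in the 18M libraries and 2.10 to 2.37 FPKM in the 5Y libraries. The type II receptors TGFBR2 and BMPR2 and the type I receptors ACVR1 and BMPR1B had overlapping values. ACVR1, a type I receptor for BMPs, had the highest mean of the type I receptors over all 6 libraries, but not over the 5Y libraries, where TGFBR1 and BMPR1A had higher means. It was at 3.60, 3.91 and 3.23 FPKM in the 18M libraries and at 3.01, 3.93 and 2.45 FPKM in the 5Y libraries. BMPR2, the type II receptor for BMPs, was at 2.69, 2.76 and 2.59 FPKM in the 18M libraries and at 3.54, 2.69 and 3.36 FPKM in the 5Y libraries. ACVR1C was below the filter. The co-receptor TGFBR3, or betaglycan, which binds inhibin and TGF-beta, was at 8.70, 11.4 and 11.6 FPKM in the 18M libraries and at 8.71, 8.02 and 9.96 FPKM in the 5Y libraries, and these values overlap (log2 fold change -0.24, adjusted p = 0.385, and -0.38 without 18M replicate 1).

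All 7 SMAD genes of the table were tested, and SMAD4, the common partner of the receptor-regulated SMADs, had the lowest p-value among them. SMAD4 (ENSBGRG00000024537) was at 4.67, 4.11 and 3.45 FPKM in the 18M libraries and at 9.20, 5.72 and 5.97 FPKM in the 5Y libraries. Every 5Y library was above every 18M library, and 5Y replicate 1 was the highest (log2 fold change 0.73, standard error 0.22, unadjusted p = 0.013 and adjusted p = 0.154). Divided by the sum of the Sertoli cell markers, SMAD4 was 0.192 to 0.218 in the 18M libraries and 0.170 to 0.215 in the 5Y libraries. Divided by the sum of the peritubular and stromal markers, it was 0.122 to 0.195 and 0.119 to 0.155, so its ranges overlapped against either of these lists. Divided by the sum of the round spermatid markers, SMAD4 was 0.0148 to 0.0247 and 0.0328 to 0.196, with no overlap. SMAD7 (ENSBGRG00000022643), an inhibitory SMAD, was at 1.53, 1.22 and 1.04 FPKM in the 18M libraries and at 3.16, 1.47 and 3.13 FPKM in the 5Y libraries. Replicates 1 and 3 of 5Y stood apart while 5Y replicate 2 lay among the 18M libraries (log2 fold change 0.92, standard error 0.33, unadjusted p = 0.0253 and adjusted p = 0.168). Without 5Y replicate 2 its log2 fold change was 1.27 (adjusted p = 0.0205), and without 5Y replicate 1 it was 0.74 (adjusted p = 0.309). SMAD6, the other inhibitory SMAD, was at 0.170 to 0.299 FPKM in the 18M libraries and at 1.81, 0.293 and 0.385 FPKM in the 5Y libraries, so that 5Y replicate 1 stood apart from the other 5 libraries.

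SMAD1 and SMAD5 are regulated by BMP receptors. SMAD5 was at 4.56, 4.65 and 4.56 FPKM in the 18M libraries and at 7.97, 4.81 and 6.35 FPKM in the 5Y libraries, so the groups did not overlap (log2 fold change 0.44, adjusted p = 0.218). Its log2 fold change was 0.62 without 5Y replicate 2 (adjusted p = 0.0419) and 0.26 without 5Y replicate 1 (adjusted p = 0.409). SMAD1 had a log2 fold change of similar size, 0.49 (adjusted p = 0.327), and 0.21 without 5Y replicate 1, but its groups overlapped, with 1.03 to 1.56 FPKM in the 18M libraries and 1.39 to 2.57 FPKM in the 5Y libraries. SMAD2 and SMAD3, regulated by the TGF-beta and activin receptors, had log2 fold changes of 0.13 and -0.02, with adjusted p-values of 0.561 and 0.954. SMAD2 ranged from 3.63 to 4.47 FPKM and SMAD3 from 3.32 to 5.76 FPKM over the 6 libraries.

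Of the extracellular antagonists, FSTL1 and FSTL3 passed the filter and their groups overlapped. FSTL1 (ENSBGRG00000002621), a secreted relative of follistatin, was at 5.43, 4.87 and 5.65 FPKM in the 18M libraries and at 8.62, 4.49 and 6.52 FPKM in the 5Y libraries. FSTL3, which binds activin, was at 1.75, 1.25 and 0.791 FPKM in the 18M libraries and at 3.84, 1.76 and 1.63 FPKM in the 5Y libraries (log2 fold change 0.84, adjusted p = 0.229, and 0.46 without 5Y replicate 1). FST (follistatin), CHRD (chordin) and NOG (noggin) had means of at most 0.0718 FPKM in either group and were below the filter.

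The rule also took 4 genes by the spelling of their symbols, which encode no ligand, receptor or SMAD of the family. TGFBRAP1 (ENSBGRG00000005800), a protein that associates with TGF-beta receptors and acts in endosomal transport, had the lowest p-value among all members. It was at 0.700, 0.752 and 0.674 FPKM in the 18M libraries and at 1.83, 1.07 and 1.84 FPKM in the 5Y libraries, with no overlap (log2 fold change 1.02, standard error 0.27, unadjusted p = 0.00674 and adjusted p = 0.154). BMP2K, a kinase first found as a target of BMP2, was at 14.3, 13.1 and 14.2 FPKM in the 18M libraries and at 13.8, 14.2 and 13.1 FPKM in the 5Y libraries, and its small difference changed sign with the libraries and scaling used. TGFB1I1, a focal adhesion protein, lay between 0.465 and 0.502 FPKM in the 18M libraries and between 0.504 and 1.27 FPKM in the 5Y libraries. BMP1, a metalloprotease, was below the filter.

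**Figure D3:**
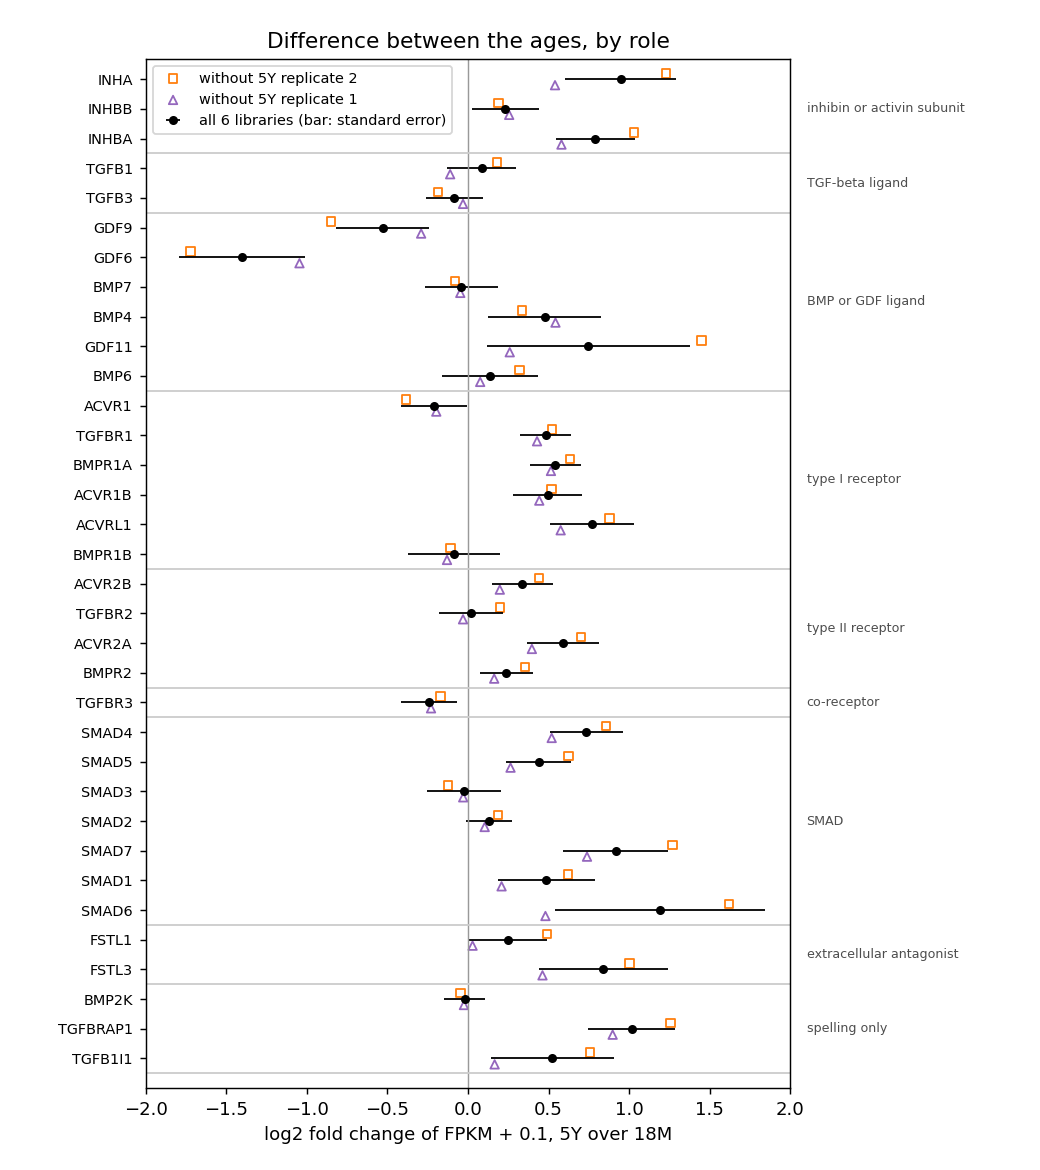
Log2 fold change of FPKM + 0.1, 5Y over 18M (x axis), of the 34 tested genes grouped by role. Black points with bars are the fit of all 6 libraries with its standard error, orange squares the fit without 5Y replicate 2 and purple triangles the fit without 5Y replicate 1. In the fit of all libraries 25 of the 34 points lie to the right of 0, and INHA moves from 0.54 without 5Y replicate 1 to 1.23 without 5Y replicate 2.

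The 15 identifiers that were not chosen held several of the highest levels under a family symbol. The symbol BMP15 stood on 5 identifiers. The one with BMP15 terms was listed at 0 in all libraries, and the other 4 carried terms of nucleotide and polyphosphate hydrolases, of mRNA processing or of the nucleoplasm. Of these, ENSBGRG00000025627 was at 26.1, 26.5 and 19.8 FPKM in the 18M libraries and at 50.4, 30.3 and 44.5 FPKM in the 5Y libraries (log2 fold change 0.77, adjusted p = 0.154). ENSBGRG00000025611, also under BMP15, was at 19.4, 12.7 and 15.1 FPKM in the 18M libraries and at 25.9, 21.4 and 31.6 FPKM in the 5Y libraries (log2 fold change 0.74, adjusted p = 0.154). The terms of neither name BMP15. A second GDF11 identifier (ENSBGRG00000000304, DNA binding terms) was at 9.91, 11.2 and 11.4 FPKM in the 18M libraries and at 17.5, 14.9 and 14.7 FPKM in the 5Y libraries. A second GDF9 identifier (ENSBGRG00000000468, terms of respiratory complex III) was at 1.18, 2.04 and 1.60 FPKM in the 18M libraries and at 2.56, 2.50 and 2.65 FPKM in the 5Y libraries. These 4 identifiers make up the difference between the 13 and the 9 higher calls given above. A second FSTL1 identifier (ENSBGRG00000002707), which carries terms of respiratory complex I, had overlapping values between 64.6 and 101.4 FPKM. A TGFB2 identifier without terms (ENSBGRG00000005684) was at 10.1, 6.32 and 6.55 FPKM in the 18M libraries and at 8.31, 6.17 and 9.73 FPKM in the 5Y libraries, which also overlap.

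Further genes of the pathway were taken from lists of other ligands, latency and matrix proteins, antagonists, co-receptors, SMAD regulators and response genes. The table held 60 of them and 44 were tested. Where a symbol stood on several identifiers, that with the highest mean was taken whatever its terms, so some may not be the named gene. None had an adjusted p-value under 0.05, 12 were higher in the 5Y libraries at an unadjusted p-value under 0.05 (27.3%) and 3 were lower (6.82%), beside the 14.2% and 10.9% of all genes tested. Without 5Y replicate 2, 13 had an adjusted p-value under 0.05, 10 higher and 3 lower, where all genes in that fit had 20.3% of such calls (10.9% higher and 9.41% lower).

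The proteins that hold TGF-beta in the matrix had the highest median log2 fold change of these lists (0.78 over 7 tested genes, 0.72 without 5Y replicate 1). LTBP4, which binds latent TGF-beta, was at 4.71, 4.22 and 5.38 FPKM in the 18M libraries and at 17.6, 8.60 and 11.6 FPKM in the 5Y libraries (log2 fold change 1.33, standard error 0.26, adjusted p = 0.154). DCN, the proteoglycan decorin that binds TGF-beta, was at 1.83, 2.62 and 2.62 FPKM in the 18M libraries and at 5.73, 4.97 and 4.57 FPKM in the 5Y libraries (log2 fold change 1.09, unadjusted p = 0.00075, adjusted p = 0.154). ITGAV, an integrin subunit that takes part in activating latent TGF-beta, had a log2 fold change of 0.97, and LTBP2, a matrix relative of LTBP4, one of 0.78. For these 4 genes every 5Y library exceeded every 18M library. ITGB8, LTBP1 and FBN1 had overlapping values. The symbol LTBP2 stood on 3 identifiers, and that used carried no terms. The symbol FBN1 stood on 2, and that used carried no terms of the family. DCN and ACTA2 are also on the list of peritubular and stromal markers, of which 5 of 6 were higher in the 5Y libraries at an unadjusted p-value under 0.05 (14.2% of all genes tested). The part of these cells in the differences of the matrix genes was not tested.

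Of the 18 tested SMAD partners and regulators, 4 were higher and 1 was lower in the 5Y libraries at an unadjusted p-value under 0.05, beside 14.2% and 10.9% of all genes tested. The repressors TGIF1, TGIF2 and SKI, which act on SMAD-bound genes, had log2 fold changes of 0.88, 0.69 and 0.64, each with groups that did not overlap. TGIF1 was at 3.46, 2.59 and 2.74 FPKM in the 18M libraries and at 7.05, 3.92 and 5.77 FPKM in the 5Y libraries. PPM1A, a phosphatase of SMAD2 and SMAD3, was the gene that was lower, at 10.3, 10.1 and 11.9 FPKM in the 18M libraries and at 4.02, 8.76 and 6.67 FPKM in the 5Y libraries (log2 fold change -0.79, adjusted p = 0.167, and -0.48 without 5Y replicate 1). SMURF1 and SMURF2, ubiquitin ligases that degrade SMADs and receptors, had overlapping values. Of the 9 tested response genes, 2 were higher and 1 was lower by the same measure, beside the same 14.2% and 10.9%. ID4, a BMP-responsive gene that also marks spermatogonia, was at 10.9, 7.37 and 7.89 FPKM in the 18M libraries and at 28.4, 12.3 and 18.4 FPKM in the 5Y libraries (log2 fold change 1.10, adjusted p = 0.154). ID1, ID2 and ID3 overlapped between the ages, though the symbol ID1 stood on 4 identifiers and that used carried no terms. ACTA2, smooth muscle actin, had a log2 fold change of 0.84. The lower gene, named after its values were seen, stood under the symbol HES1, a transcriptional repressor, on an identifier whose terms name only the nucleus and the cytoplasm, at 10.5, 11.7 and 11.8 FPKM in the 18M libraries and at 8.10, 9.39 and 8.39 FPKM in the 5Y libraries (log2 fold change -0.40). Among the other antagonists and receptors, NEO1, a receptor that binds BMP co-receptors, had a log2 fold change of 0.64. The symbol FSTL4, a follistatin-like gene, stood on 3 identifiers, and the one with the highest level, whose terms name binding of brain-derived neurotrophic factor and no function of this family, had a log2 fold change of -0.89.

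The deposited table of differential m6A peaks between the ages held 8 peaks on genes of the family, 1 each on GDF9, INHBA, FSTL1, TGFBR3, ACVR2A, ACVR2B, BMPR2 and SMAD7. All 8 genes were among the tested ones, or 23.5% of 34, where 9.29% of all genes tested carried such a peak. With all identifiers kept the share was 19.0% of 42. The table gives neither a direction nor a fold change or p-value, so which age had more m6A at a peak is not known here. The antibody-bound libraries themselves were not analysed here. Positions are on the LU_Bosgru_v3.0 assembly as deposited.

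The INHBA peak was the widest, with 10045 bp on chromosome 4 from 44551037 to 44561081, and was annotated to exon 1 of a transcript with 1 exon. It began 497 bp from the gene start and covered most of the gene, which spans 13823 bp on the minus strand. The SMAD7 peak lay near the opposite end of the scale, with 197 bp on chromosome 21 from 46375517 to 46375713, in exon 1 of 4 and 636 bp from the gene start. Only the GDF9 peak was narrower, with 147 bp on chromosome 8 from 48128972 to 48129118, in exon 2 of 2. The ACVR2A peak (chromosome 2, 97003598 to 97004851) was the one annotated to a 3′ UTR, 539 bp before the gene end. The BMPR2 peak (chromosome 2, 50233631 to 50235134) ended 846 bp before the gene end and was annotated to exon 12 of 13. The peaks on ACVR2B (chromosome 22, 54764976 to 54766858, exon 9 of 11), FSTL1 (chromosome 1, 70546070 to 70549609, exon 4 of 9) and TGFBR3 (chromosome 3, 56232089 to 56238345, exon 13 of 18) had their centres at 85.0% to 88.3% of the gene length. Of the 8 peaks, 6 had their centre past 80% of the gene length, counted with introns. The median width was 1693.5 bp, where that of all 1438 differential peaks was 398 bp, and 2 of the 8 were at most 1000 bp wide. Widths are lengths on the genome and can include introns. In the input libraries, the groups did not overlap for INHBA, ACVR2A and ACVR2B, all higher in the 5Y libraries (as were 19.8% of all genes tested), and overlapped for the other 5 genes.

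**Figure D4:**
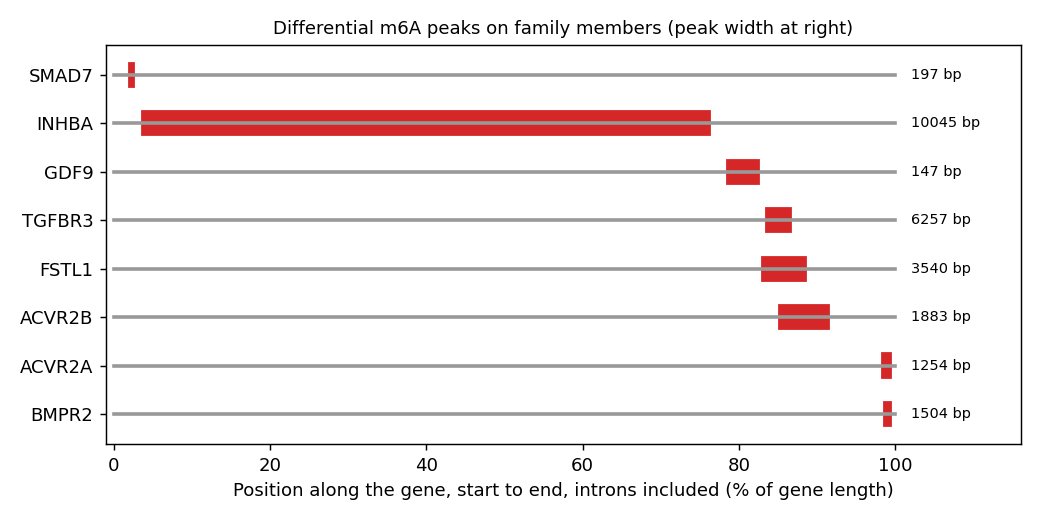
Position of the 8 differential m6A peaks (red) along their genes (grey), from the gene start at 0% to the gene end at 100% of its length on the genome, introns included. Peak widths are given in bp at the right. The SMAD7 and INHBA peaks begin near the gene start and the other 6 lie in the later part of the gene.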

How the data were processed

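The FPKM values were deposited by the authors for each gene in each input library. According to the methods, reads were trimmed with Trimmomatic, cleared of ribosomal RNA with SortMeRNA, aligned with HISAT2 (version 2.0.4 per the labels) to LU_Bosgru_v3.0, and kept when uniquely mapped. The program that computed FPKM is not given in the sources used here. Differential peaks were called by the authors with MeTDiff and annotated with ChIPseeker. How replicates entered that comparison is not given in the sources used here. The peak table holds positions, lengths and annotation, described as deposited. The peak list of each group alone was left out. Of the 12 libraries, the 6 input libraries were compared, grouped by the age in their titles.

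Genes with a mean of at least 0.5 FPKM were tested on log2(FPKM + 0.1) with limma 3.58.1 in R 4.3.3 (lmFit, eBayes with a trend, two-sided), adjusted by Benjamini-Hochberg over all genes tested. A fold change on this scale understates that of low genes. Tables were handled with Python 3.11.15, pandas 2.3.3, numpy 2.4.6 and scipy 1.17.1. On simulated data for this comparison (12437 genes), 75% of the 200 genes given a log2 change of 2 were called, and 18% of those given a change of 1. With no gene changed, 0 were called. The libraries of a group come from different animals.

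The members, gene lists and tests were chosen with earlier results of these data known. Given with a value in every library are members with an adjusted p-value under 0.05, members with an unadjusted p-value under 0.05 and no overlap, the highest member of each role, members with a peak, and the inhibin subunits. Of the pathway lists, the 12 genes with the largest absolute log2 fold change among those with an unadjusted p-value under 0.05 and no overlap are named. Values of SMAD5, SMAD6, GDF11, FSTL3, ACVR1B, TGFB1I1 and other genes outside this rule were added after they had been seen. For the pathway and marker lists, the identifier with the highest mean FPKM was taken where a symbol stood on several. Its terms did not enter this choice, unlike that for the family. Among the pathway genes so taken, those of LTBP2 and ID1 carried no terms. Those of FBN1, HJV, RGMA, CHRDL1 and CHRDL2 carried terms other than those of the family. Alternatives were other pseudocounts, filters, scalings and forms of eBayes, a replicate block, fits without each library, and other identifiers per symbol. No sequence is shown.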

Additional observations from a re-analysis of the deposited data

How the results depend on the processing

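The number of family identifiers with an adjusted p-value under 0.05 stayed at 0 under all alternatives with 6 libraries, and lay between 0 and 13 when 1 library was left out, with 13 only without 5Y replicate 2. Leaving out 1 library gave 8 to 18 identifiers higher in the 5Y libraries at an unadjusted p-value under 0.05 (8 without 18M replicate 3) and 1 to 2 lower, and 1 to 5 lower without overlap. For the pathway lists it gave 0 to 13 with an adjusted p-value under 0.05, 0 to 7 lower at an unadjusted p-value under 0.05 and 4 to 10 lower without overlap. Over all 12433 to 12437 genes of these fits, 1034 to 2711 were higher and 628 to 2280 lower at an unadjusted p-value under 0.05. The fewest were without 18M replicate 3 and the most without 5Y replicate 2, so the whole table moved too. Shares over all genes are not given here for the counts without overlap. Over all genes, the 4 adjusted calls became 2 with a pseudocount of 0.01, 2 with a minimum mean of 1 FPKM, 8 without the filter, 9 without a trend, and 0 to 2524 when 1 library was left out. With peaks of at most 1000 bp only, 2 of the 8 peaks remained. The cause of these changes was not tested.

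Same-numbered samples of the ages did not deviate together over the tested genes (correlations of -0.0222, -0.0909 and 0.00668). The numbers name different animals at each age. With so few libraries, this check cannot exclude that same-numbered samples shared a step of processing. With the replicate block, 0 family identifiers had an adjusted p-value under 0.05, 14 were higher and 1 was lower at an unadjusted p-value under 0.05, and all genes had 1 adjusted call.

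Some small fold changes turned their sign. BMP2K was 0.11 with sum scaling, 0.10 with quantile normalization, and -0.062 to 0.0083 when 1 library was left out (0.0025 without 18M replicate 1 and 0.0083 without 5Y replicate 3). TGFB1 was -0.0034 with quantile normalization, and -0.11 to 0.18 when 1 library was left out (-0.013 without 18M replicate 1 and -0.11 without 5Y replicate 1). FSTL1 ENSBGRG00000002707 was 0.066 with quantile normalization, and TGFB2 ENSBGRG00000005684 was -0.061 to 0.30 when 1 library was left out (-0.036, -0.010 and -0.061 without 18M replicate 2, 18M replicate 3 and 5Y replicate 3). Without 5Y replicate 1, a choice made after seeing the data, the median of the spermatocyte markers became 0.036 and that of the macrophage markers -0.16. The other 528 values of single genes and lists kept their direction, and those of single genes also their side of the adjusted threshold. No named gene passed that threshold in the fit of all libraries, and the 22 values that did were all without 5Y replicate 2. Unadjusted calls did not enter this count. Of the 34 tested members, 9 were higher by the unadjusted threshold with all libraries and 6 without 5Y replicate 1. Those lost were ACVR2A, ACVRL1 and SMAD7 (unadjusted p = 0.0803, 0.0564 and 0.0763 by limma). Depth was not given, so it sets no stated limit.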
